A study of Mus musculus with 12 samples.

Results

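The transcripts followed here were those of 9 named genes in mouse bone marrow-derived macrophages (BMDMs): 6 nuclear receptors (Pparg, Ppard, Rxra, Rxrb, Esrra and Nr3c1), the coactivator Ppargc1b and the corepressors Ncor1 and Nrip1. The genes were chosen by symbol, all 9 were among the 12960 genes counted, and all 9 were among the 10822 genes that passed the filter on low counts. Marrow of WT and AMPKβ1-/- mice was grown for 7 days with L929 medium, a source of M-CSF, and the resulting BMDMs were given 0.1% DMSO (vehicle) or PF-06409577 (PF) at 10 µM for 6 h. AMPKβ1-/- mice lack Prkab1, which encodes the β1 subunit of the energy sensor AMPK, in all tissues, and PF is an activator that binds AMPK complexes holding this subunit. Each of the 4 groups (WT or AMPKβ1-/-, vehicle or PF) had 3 RNA sequencing libraries. Neither the labels nor the methods give the number of mice or the mice behind each library, so p values measure the spread between these libraries, and the genotype cannot be told apart from any other difference between the WT and AMPKβ1-/- cultures.

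Nuclear receptors are transcription factors that bind small lipophilic ligands and then exchange corepressors for coactivators on DNA. PPARγ (Pparg) and PPARδ (Ppard) sense fatty acids, work as heterodimers with a retinoid X receptor (Rxra, Rxrb), and in macrophages control lipid uptake, fatty acid oxidation and inflammatory genes. ERRα (Esrra) is an orphan receptor that drives mitochondrial genes when PGC-1 coactivators such as PGC-1β (Ppargc1b) bind it, and AMPK is known for acting on mitochondrial gene expression through PGC-1 proteins in muscle. The glucocorticoid receptor (Nr3c1) mediates the anti-inflammatory action of corticosteroids in macrophages. NCoR1 (Ncor1) brings histone deacetylase to receptors without agonist, and RIP140 (Nrip1) represses receptors that have bound agonist and is also known as a partner of NF-κB in macrophages.

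Libraries held 8935609 to 14358180 counts. Prkab1, the deleted gene, had 399 to 490 counts in the 6 WT libraries and 57 to 120 in the 6 AMPKβ1-/- libraries, so its level went with the labels. All 9 macrophage markers (Adgre1, Csf1r, Cd68 and others) were detected and tested, and their summed level was 25300 to 29700 CPM (counts scaled to library size and by TMM) over the 12 libraries. Of the other cell types, 4 of 7 granulocyte markers were in the table with a summed level of at most 1.22 CPM, 1 of 6 lymphoid markers with at most 0.187 CPM, and 0 of 5 adipocyte markers. All 5 fibroblast markers were in the table, with sums of 2.02 to 8.66 CPM in AMPKβ1-/- BMDMs with vehicle and at most 2.12 CPM in the other groups, and the part of these cells in the results was not tested. These are bulk cultures, in which fewer cells of a type and less RNA per cell cannot be told apart.

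A property of the libraries bears on every comparison between genotypes. The abundance of transcripts depended on their GC content differently in each library: per 10 percentage points of GC, log2 abundance relative to the mean library changed by 0.371 to 0.747 in WT BMDMs with vehicle, by −0.0545 to 0.381 in PF-treated WT, by −0.37 to −0.105 in AMPKβ1-/- given vehicle and by −0.532 to −0.345 in PF-treated AMPKβ1-/- BMDMs. The members' results below are therefore given for TMM-scaled counts and again after the trend in GC content and transcript length was removed from each library. Whether the trend arose in the cells or in the preparation of the libraries was not tested.

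By position (GRCm38, GENCODE M21), the members lie on 7 chromosomes. Pparg spans chr6:115360951-115490399 (+), Ppard chr17:28232700-28301474 (+), Rxra chr2:27676440-27762957 (+), Rxrb chr17:34031812-34038399 (+) and Esrra chr19:6910977-6921813 (−). Ncor1 spans chr11:62316426-62458541 (−), Nrip1 chr16:76287400-76373827 (−), Nr3c1 chr18:39410545-39519421 (−) and Ppargc1b chr18:61298136-61400431 (−). None lies on chromosome 5, which holds Prkab1.

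All 9 genes are protein coding, and by the GC content pooled over their protein-coding transcripts they formed a GC-poor and a GC-rich set. Nr3c1 (44.8% GC), Pparg (46.9%), Nrip1 (47.0%) and Ncor1 (48.6%) lay below the median of 50.5% over tested genes. Rxra (57.8%), Ppargc1b (58.5%), Ppard (60.1%), Rxrb (60.7%) and Esrra (62.7%) lay above it, and Esrra was at the 99.1th percentile. By their longest transcript, Nr3c1, Nrip1 and Ncor1 were also long, at 6436, 7868 and 9037 bases. This put them at the 89.0th, 94.5th and 96.8th percentiles of length.

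Shown are RefSeq promoter windows (GRCm38.p6, 250 bases before to 50 after a start) of a pair of members that were higher and a pair that were lower in AMPKβ1-/- BMDMs. The 4 windows picked were GC-rich, while the transcripts of the first pair were GC-poor. They are Ncor1 (chr11:62457283-62457582, −, 72.3% GC), Nrip1 (chr16:76373000-76373299, −, 73.3% GC), Rxrb (chr17:34031562-34031861, +, 68.7% GC) and Esrra (chr19:6921759-6922058, −, 66.0% GC), against a median of 52.7% over 32851 windows. Capitals mark the GC box GGGCGG on either strand, the element that Sp1 factors bind:
Ncor1: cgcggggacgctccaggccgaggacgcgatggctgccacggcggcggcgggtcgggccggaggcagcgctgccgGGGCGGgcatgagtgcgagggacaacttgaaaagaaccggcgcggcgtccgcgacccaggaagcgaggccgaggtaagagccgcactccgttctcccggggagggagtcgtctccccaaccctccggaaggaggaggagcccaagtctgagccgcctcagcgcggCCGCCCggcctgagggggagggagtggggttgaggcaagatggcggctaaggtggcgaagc
Nrip1: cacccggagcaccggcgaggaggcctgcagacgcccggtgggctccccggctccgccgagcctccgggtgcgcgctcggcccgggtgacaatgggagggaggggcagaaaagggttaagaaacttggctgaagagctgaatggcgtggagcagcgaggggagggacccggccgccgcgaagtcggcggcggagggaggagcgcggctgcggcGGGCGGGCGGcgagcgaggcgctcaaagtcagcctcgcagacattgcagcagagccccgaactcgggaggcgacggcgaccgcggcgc
Rxrb: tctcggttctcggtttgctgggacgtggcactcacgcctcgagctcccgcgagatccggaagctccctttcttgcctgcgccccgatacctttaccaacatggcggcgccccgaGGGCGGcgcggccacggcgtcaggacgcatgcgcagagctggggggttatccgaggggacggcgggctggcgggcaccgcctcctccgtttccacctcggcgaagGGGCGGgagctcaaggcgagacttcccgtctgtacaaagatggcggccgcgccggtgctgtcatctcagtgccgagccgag
Esrra: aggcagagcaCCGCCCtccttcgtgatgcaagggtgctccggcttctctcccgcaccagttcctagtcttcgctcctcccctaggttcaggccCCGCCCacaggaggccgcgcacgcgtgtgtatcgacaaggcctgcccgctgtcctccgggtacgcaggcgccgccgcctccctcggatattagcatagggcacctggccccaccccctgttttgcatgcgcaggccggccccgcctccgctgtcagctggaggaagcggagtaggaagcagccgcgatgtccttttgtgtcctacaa

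Ncor1, Nrip1 and Rxrb each have a further RefSeq start, whose windows had 38.3%, 52.7% and 82% GC and 0, 0 and 4 GC boxes. The further Nrip1 window (chr16:76373778-76374077) spans the annotated 5' end of the gene, and the Nrip1 window printed lies inside the gene. The Ncor1 window printed and the further Ncor1 window also lie inside the annotated gene. Each of the 4 windows printed held 2 GC boxes, which overlapped by 2 bases in Nrip1, while 35.7% of all windows held at least 1. Windows of Nr3c1 and Ppargc1b were not searched. Over the 13 windows of the other 7 members, 9 held a GC box and 3 held the nuclear receptor half-site AGGTCA (16.3% of all windows). The glucocorticoid half-site TGTTCT (19% of all windows) was in 1, an alternative Ncor1 window of 38.3% GC. The ERR element TCAAGGTCA was in 0 of 13 (0.423% of all windows). All motifs were searched on both strands, AGGTCA lies within TCAAGGTCA, and these letters say nothing of binding in BMDMs.

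Per kilobase of transcript, the levels in WT BMDMs with vehicle ran in the order Rxrb, Esrra, Pparg, Rxra, Ppard and Ncor1, Nr3c1, Ppargc1b and Nrip1. Rxrb stood at 71.2 ± 8.14 CPM per kb (SD, n = 3), Esrra at 40.1 ± 0.623, Pparg at 25.2 ± 1.78 and Rxra at 17.9 ± 0.958. Ppard and Ncor1 were at 10.0 ± 0.772 and 9.99 ± 1.14 CPM per kb and Ppargc1b and Nrip1 at 0.530 ± 0.0890 and 0.504 ± 0.0808, so neither pair was separated by its spread. All other neighbours in this order had libraries that did not overlap.

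In AMPKβ1-/- BMDMs with vehicle the middle of this order changed. Ncor1 (16.3 ± 1.59 CPM per kb) stood beside Rxra (16.9 ± 1.54), and Nr3c1 (7.72 ± 1.72) stood beside Ppard (7.45 ± 0.356), within the spread in both cases. Rxrb remained first at 45.9 ± 1.78 CPM per kb, Esrra (30.7 ± 1.65) and Pparg (26.9 ± 5.69) overlapped, and Ppargc1b was last at 0.380 ± 0.0985. With PF, WT BMDMs had the order Rxrb (55.1 ± 6.37), Esrra (35.3 ± 3.17), Pparg (29.0 ± 0.870), Rxra (15.8 ± 0.681), Ncor1 (11.5 ± 1.82), Ppard (9.34 ± 0.643), Nr3c1 (3.29 ± 0.945), Nrip1 (0.650 ± 0.199) and Ppargc1b (0.411 ± 0.110), where Ncor1 and Ppard overlapped. In AMPKβ1-/- BMDMs with PF, Pparg (30.2 ± 1.43) and Esrra (29.9 ± 1.70) overlapped, as did Ncor1 (17.8 ± 1.33) and Rxra (16 ± 0.777), and Nr3c1 (9.45 ± 1.02) stood above Ppard (7.37 ± 0.737).

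**Figure D1:**
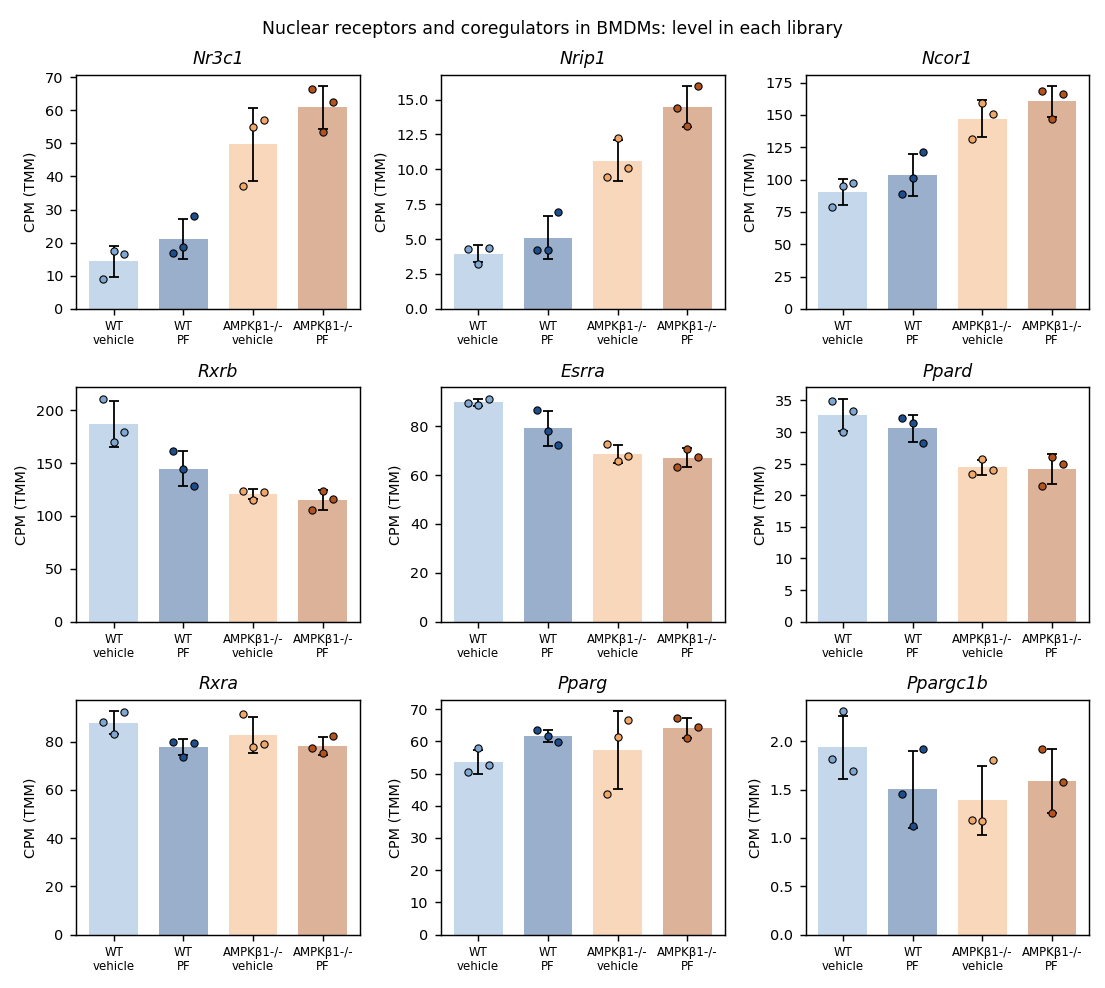
Level of each of the 9 genes in the 12 libraries, in CPM after TMM scaling. Bars are group means, error bars are SD (n = 3) and points are libraries. Nr3c1, Nrip1 and Ncor1 are higher in every AMPKβ1-/- library than in any WT library, and Ppargc1b is at 2.31 CPM or less throughout.

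The first comparison asked which of these genes differed between AMPKβ1-/- and WT BMDMs without the activator. Nr3c1, Nrip1 and Ncor1, the glucocorticoid receptor and both corepressors, were higher in AMPKβ1-/- BMDMs. Rxrb, Ppard and Esrra were lower, and Pparg, Rxra and Ppargc1b did not pass the test (edgeR quasi-likelihood test, Benjamini-Hochberg adjusted p below 0.05 over all tested genes). This count has to be read against all tested genes, of which 29.7% were called higher and 30.0% lower, so that 3 and 3 of 9 members is near the background. With the added threshold of a log2 fold change beyond 0.8, 2 of 9 members (Nr3c1 and Nrip1) were called against 17.8% of all genes. The libraries did not overlap for 6 of 9 members, against 62.9% of all genes.

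Nr3c1 was at 8.98, 17.5 and 16.4 CPM in the WT libraries with vehicle and at 37.0, 54.9 and 57.2 CPM in the AMPKβ1-/- libraries. The lowest AMPKβ1-/- library was well above the highest WT library. In log2 terms it was higher by 1.79 (SE 0.25, adjusted p = 0.000109), a 3.45-fold higher level, and it stood at the 97.6th percentile of all genes. After the GC and length trend was taken out it was 1.11 (adjusted p = 0.000191), where the median gene had 0.12, and at the 98.3th percentile.

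Nrip1, which encodes RIP140, was at 4.28, 3.23 and 4.38 CPM in WT and at 9.48, 12.3 and 10.1 CPM in AMPKβ1-/- BMDMs. The groups did not overlap, although counts were low, from 35 to 44 per library in WT. The log2 difference was 1.43 (SE 0.21, adjusted p = 9.72e-05), or 2.70-fold. With the trend removed it was 1.01 (adjusted p = 0.000478), and its percentile went from 94.3 to 97.6.

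Ncor1 was at 78.5, 95.3 and 97.1 CPM in WT and at 131, 159 and 150 CPM in AMPKβ1-/- BMDMs, again without overlap. In log2 terms the change was 0.70 (SE 0.12, adjusted p = 0.000212), or 1.63-fold, at the 80.7th percentile. With the trend removed it was 0.44 (adjusted p = 0.00108). The difference in Ncor1 was thus smaller than those in Nr3c1 and Nrip1 on either scale, and stood at the 82.4th percentile on the second.

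Among the members that were lower, Rxrb had 211, 170 and 180 CPM in WT and 124, 115 and 123 CPM in AMPKβ1-/- BMDMs. In log2 terms this was −0.63 (SE 0.10, adjusted p = 0.000152), and it was among the lowest 5.40% of genes. Esrra went from 89.6, 88.6 and 91.4 CPM to 72.8, 65.6 and 68.0 CPM, a change of −0.39 (SE 0.084, adjusted p = 0.00122). Ppard went from 35.0, 30.0 and 33.3 CPM to 23.4, 25.7 and 24.1 CPM, a change of −0.42 (SE 0.11, adjusted p = 0.00317).

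In these GC-rich receptors the WT and AMPKβ1-/- libraries did not overlap, but the lower level was not retained when the GC and length trend was removed. Rxrb then had −0.06 (adjusted p = 0.462), Ppard 0.12 (adjusted p = 0.333) and Esrra 0.18 (adjusted p = 0.0421, called higher), beside the median gene at 0.12. Rxra also moved, from −0.09 (adjusted p = 0.395) to 0.29 (adjusted p = 0.00364). With each library also centred on its median gene, an alternative chosen after the data were seen, Rxrb was at −0.17 (adjusted p = 0.0355), Rxra at 0.18 (adjusted p = 0.0355) and Esrra at 0.07 (adjusted p = 0.402). Of all genes, 36.3% were called with the trend removed.

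The median of all genes shifted by 0.145 between the scalings, so values are also plotted relative to it. Scaling by library size alone shifted that median by 0.209, and the lower level of Ppard (−0.21, adjusted p = 0.084) and Esrra (−0.18, adjusted p = 0.0556) was then not called. Relative to the median gene with the trend removed, Nr3c1 was at 0.99, Nrip1 at 0.90 and Ncor1 at 0.33, while Ppard was at 0.00 and Esrra at 0.06.

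The members that did not pass the test differed in how precisely they were measured. For Rxra the log2 fold change of −0.09 had a 95% confidence interval of −0.27 to 0.09. For Pparg it was 0.09, with an interval of −0.17 to 0.35, and the AMPKβ1-/- libraries ranged from 43.6 to 66.7 CPM. Without the lowest of these libraries, number 1, Pparg was called higher at 0.25 (adjusted p = 0.0279). Ppargc1b was at 12 to 25 counts in every library, where counting error alone is 20% to 28.9%, and its interval ran from −1.15 to 0.12.

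**Figure D2:**
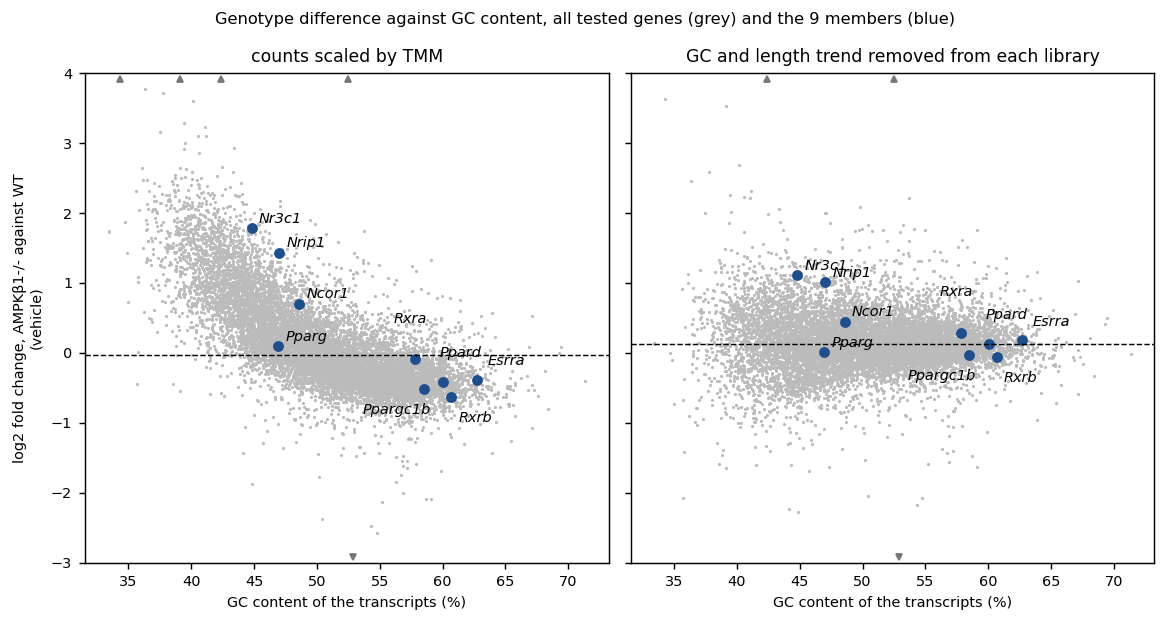
Log2 fold change of AMPKβ1-/- against WT BMDMs with vehicle (vertical axis) over the GC content pooled over a gene's transcripts in percent (horizontal axis). Shown are 10785 tested genes (grey) and the 9 members (blue), as scaled by TMM (left) and after removal of the GC and length trend (right). Dashed lines are the medians over all genes, and triangles stand for genes beyond the axis, 4 above and 1 below on the left and 2 above and 1 below on the right. Nr3c1 and Nrip1 lie above the bulk of genes of like GC content in both panels, while Rxrb, Ppard and Esrra follow the slope of the left panel.

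Across all genes the log2 fold change fell with GC content, at a Spearman correlation of −0.768 over the tested genes. Genes are not independent replicates, and the value is given as a description. The transcripts of the 3 higher members had 44.8% to 48.6% GC, and those of the 3 lower members 60.1% to 62.7%. Pparg, with 46.9% GC, is the exception in the GC-poor set, since it was not higher.

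The same comparison was made among the libraries with PF, which are other libraries than those with vehicle. Nr3c1 was at 16.7, 18.6 and 28.1 CPM in WT and at 66.4, 53.6 and 62.6 CPM in AMPKβ1-/- BMDMs, a change of 1.52 in log2 terms (SE 0.23, adjusted p = 0.000249). Nrip1 was at 4.2, 4.21 and 6.92 CPM against 14.4, 13.1 and 16 CPM, a change of 1.49 (SE 0.19, adjusted p = 3.52e-05). Ncor1 was at 88.7, 101 and 121 CPM against 169, 147 and 166 CPM, a change of 0.63 (SE 0.12, adjusted p = 0.000569).

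All 3 were again without overlap between the genotypes, and all 3 were called with the trend removed, at 1.01, 1.14 and 0.35 where the median gene had 0.106 (adjusted p at most 0.00375). Rxrb (−0.33, adjusted p = 0.0132), Ppard (−0.34, adjusted p = 0.0152) and Esrra (−0.24, adjusted p = 0.0302) were again lower. With the trend removed they were at −0.03, −0.06 and 0.07 and were not called (adjusted p of at least 0.452). Pparg (0.06), Rxra (0.01) and Ppargc1b (0.05) were within their error of no difference.

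With PF, 24.1% of all genes were called higher and 22.9% lower, 14.3% passed the added fold threshold, 59.9% had libraries that did not overlap and 38.7% were called with the trend removed. The members' 3 higher, 3 lower, 2 past the fold threshold and 6 without overlap are set against these shares. Leaving out WT library 1 or AMPKβ1-/- library 1 with PF, the members called lower went from 3 to 0. Scaling by library size alone also left 0, and it shifted the median of all genes by 0.147.

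**Figure D3:**
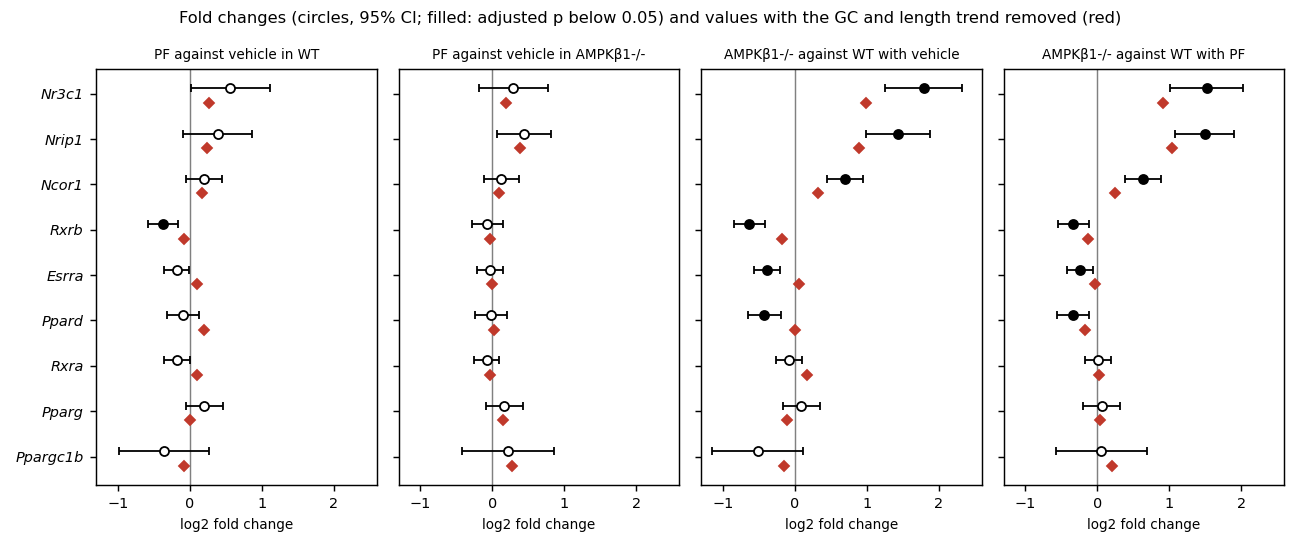
Log2 fold change of each member in 4 comparisons (horizontal axis). Circles are estimates with TMM scaling, bars are 95% confidence intervals, filled circles have an adjusted p below 0.05, and red diamonds are values with the GC and length trend removed, relative to the median gene. Nr3c1, Nrip1 and Ncor1 stay to the right of 0 between the genotypes on both scales, whereas the diamonds of Esrra and Ppard lie near 0 with vehicle.

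The second comparison asked how these genes responded to 6 h of PF in WT BMDMs. Rxrb, which encodes RXRβ, was the member called, and it was lower. Its level went from 211, 170 and 180 CPM with vehicle to 162, 145 and 128 CPM with PF. The groups did not overlap, and the change was −0.37 in log2 terms (SE 0.099, adjusted p = 0.0245). Of all genes, 6.99% were called higher and 8.95% lower, so 0 and 1 of 9 members is near the background, and 1.52% passed the added fold threshold, which no member did.

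The Rxrb call depended on the libraries and on the scaling. It was lost without WT vehicle library 1 (adjusted p = 0.108), without PF library 2 (adjusted p = 0.0809) or without PF library 3 (adjusted p = 0.135), and when only the WT libraries were fitted (adjusted p = 0.082). After removal of the trend it was −0.04 (adjusted p = 0.79), and 6.80% of all genes were called. Without PF library 1, Esrra (−0.25, adjusted p = 0.037) was called lower as well, and the share of all genes called rose to 29.7%.

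The other 8 members did not pass the test in WT BMDMs. Nr3c1 had a log2 fold change of 0.56 (95% confidence interval 0.01 to 1.11, adjusted p = 0.135) and Nrip1 of 0.39 (−0.09 to 0.86, adjusted p = 0.227). Esrra had −0.18 (−0.36 to −0.01, adjusted p = 0.129) and Rxra −0.18 (−0.36 to 0.00, adjusted p = 0.146), Ppard −0.10, Ncor1 0.20, Pparg 0.20 and Ppargc1b −0.36. In 4 of 9 members (Pparg upward, Esrra, Rxra and Rxrb downward) the libraries did not overlap, against 32.2% of all genes. With the trend removed Ppard, Esrra and Rxra had values of 0.23, 0.13 and 0.15, of the opposite sign and not called.

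Single libraries of the WT groups stood apart in several members. WT vehicle library 1, which had the steepest rise of abundance with GC content (0.747), had the lowest Nr3c1 and Ncor1 and the highest Rxrb and Ppard of the 3 vehicle libraries. Nrip1, however, was lowest in vehicle library 2 (3.23 CPM, 4.28 in library 1). Esrra was highest in vehicle library 3 (91.4 CPM, 89.6 in library 1). PF library 3, the WT library with the flattest slope (−0.0545), had the highest Nr3c1, Nrip1 and Ncor1 and the lowest Rxrb, Esrra and Ppard of the 3 PF libraries. Across genes the log2 fold change in WT fell with GC content (Spearman correlation −0.713), and the part of this trend in the members' values is shown by the values with the trend removed.

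In AMPKβ1-/- BMDMs, which lack the subunit that PF binds, 0 of 9 members were called with PF by edgeR (0.0554% of all genes higher and 0% lower; 0% with the trend removed). DESeq2 and limma-voom also called 0 members. At an unadjusted p below 0.05, 464 of all genes were higher and 75 lower. Among the members Nrip1 alone passed that unadjusted level. It was at 9.48, 12.3 and 10.1 CPM with vehicle and at 14.4, 13.1 and 16 CPM with PF, without overlap, against 14.5% of all genes without overlap. The change was 0.44 in log2 terms (SE 0.18, edgeR adjusted p = 0.898). Pparg, Ncor1 and Nr3c1 had 0.17, 0.13 and 0.29, and the other members lay between −0.08 and 0.22.

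The difference between the PF responses of WT and AMPKβ1-/- BMDMs was tested as an interaction. Of all genes 0.176% had a response that was higher in WT and 0.24% one that was lower (1.43% in either direction with the trend removed), and 0 of 9 members were called by edgeR, DESeq2 or limma-voom. At an unadjusted p below 0.05 the counts over all genes were 687 and 863. Rxrb had the smallest p of the members, with a difference of −0.30 (95% confidence interval −0.60 to 0.00, edgeR adjusted p = 0.349). The interval for Nr3c1 was −0.46 to 1.00, for Nrip1 −0.67 to 0.57 and for Ppargc1b −1.47 to 0.32, so moderate differences in these responses were not detectable with 3 libraries a group. For Esrra (−0.40 to 0.10) and Rxra (−0.35 to 0.16) the intervals were narrower.

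The ratio of related receptors was followed within each library. Per kilobase, Rxrb was 3.63 to 4.47 times Rxra in WT BMDMs with vehicle, 3.01 to 3.78 times with PF, 2.53 to 2.89 times in AMPKβ1-/- with vehicle and 2.55 to 3.07 times with PF. Rxrb was thus the more abundant RXR transcript in all 12 libraries, and the ratio was lower in every AMPKβ1-/- library with vehicle than in any WT library with vehicle. Ppard was 0.337 to 0.45 times Pparg in WT with vehicle and 0.234 to 0.349 times in AMPKβ1-/- with vehicle, and these ranges overlapped. With PF it was 0.306 to 0.33 times Pparg in WT and 0.207 to 0.277 times in AMPKβ1-/-, without overlap. The transcripts of Rxra and Rxrb differ little in GC content (57.8% and 60.7%) but differ in length (4905 and 2627 bases). Those of Pparg and Ppard differ by more in GC content (46.9% and 60.1%). The ratios were taken without removal of the trend. With the trend removed, the log2 fold change between the genotypes with vehicle was 0.29 for Rxra and −0.06 for Rxrb.

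The rest of the receptor family was taken from a list of 42 other nuclear receptors, of which 21 were in the table and 15 were tested. Vdr, at 8 counts or less in every library, was below the filter, and Ppara, Esrrb, Esrrg and the coactivator Ppargc1a were not in the table. In WT BMDMs 0 of 15 were called higher and 5 lower with PF, with a median log2 fold change of −0.17 beside 0.00 over all genes, where 6.99% were higher and 8.95% lower. With the trend removed 0 were higher and 1 lower, Nr4a1, and the list's median was 0.04, as was that of all genes. Nr4a1, an immediate early orphan receptor, went from 12.3 ± 0.0269 to 5.94 ± 1.12 CPM (log2 fold change −1.05, adjusted p = 0.00149) and remained called with the trend removed (−0.77, adjusted p = 0.00114). Nr1h3, which encodes LXRα, a partner of RXR in cholesterol efflux, had −0.50 (adjusted p = 0.00626), and −0.23 (adjusted p = 0.0662) with the trend removed. Rarg (−0.38) and Nr1h2 (−0.32) were called lower, and −0.05 and −0.02 remained with the trend removed, where neither was called. The remaining call, Nr2f6, named after its values were seen, went from −0.40 (adjusted p = 0.0376) to −0.14 (adjusted p = 0.368).

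Between the genotypes with vehicle 3 of the 15 receptors were higher and 5 lower, against 29.7% and 30% of all genes. The circadian repressor Nr1d2 was at 6.38 ± 1.59 CPM in WT and 19.6 ± 0.854 CPM in AMPKβ1-/- BMDMs (log2 fold change 1.61, adjusted p = 3.26e-05), and its activating counterpart Rora at 1.52 ± 0.764 and 6.58 ± 0.542 CPM (2.09, adjusted p = 6.93e-05). Both were called with the trend removed, at 0.84 and 1.01. With PF 5 of 15 were higher and 1 lower, against 24.1% and 22.9% of all genes, and Nr1d2 (1.53) and Rora (1.76) were again among the higher. On removal of the trend the counts became 7 and 0 with vehicle and 8 and 0 with PF. On that scale the median of all genes was 0.12 and 0.11, and 26.3% of all genes were then higher and 9.93% lower with vehicle, and 27.2% and 11.5% with PF.

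With TMM scaling, coactivators other than Ppargc1b were more often called higher than lower in AMPKβ1-/- BMDMs. Of 14 tested (of 16 listed), 7 were higher and 3 lower with vehicle and 7 and 1 with PF, where the median change was 0.40 and 0.27 beside −0.03 and 0.00 over all genes. Of all genes 29.7% were higher and 30% lower with vehicle, and 24.1% and 22.9% with PF. The histone acetyltransferase Ep300, at 139 ± 25.4 CPM in WT and 220 ± 7.06 CPM in AMPKβ1-/- with vehicle, had a log2 fold change of 0.66 (adjusted p = 0.000269). The p160 coactivator Ncoa2 had 0.90 (adjusted p = 0.000234) and Kat2b 0.99 (adjusted p = 0.000224). All 3 were called with the trend removed (0.55, 0.76 and 0.69), while Med1 (0.64, adjusted p = 0.000489) was not (adjusted p = 0.0603). On that scale 7 of 14 were higher and 0 lower with vehicle and 4 and 0 with PF. Of all genes 26.3% were then higher and 9.93% lower with vehicle, and 27.2% and 11.5% with PF. The count higher with PF was thus near the background.

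Of 14 other corepressors and subunits of the NCoR complex, all tested, 5 were higher and 4 lower with vehicle, close to the shares over all genes. Tbl1xr1, a subunit of the same complex as NCoR1, was higher in AMPKβ1-/- BMDMs (0.94, adjusted p = 0.000586), but at −0.12 (adjusted p = 0.357) with the trend removed. With PF its sign turned, from 0.48 (adjusted p = 0.0342) to −0.44 (adjusted p = 0.00108). Gps2 and Hdac3, also subunits of that complex, were lower (−0.46 each, adjusted p = 0.000154 and 0.000954), and neither was called with the trend removed. With PF, 5 were higher and 1 lower between the genotypes, against 24.1% and 22.9% of all genes. Without the trend the list had 5 higher and 0 lower (vehicle) and 5 and 1 (PF). The shares of all genes were then 26.3% and 9.93% (vehicle) and 27.2% and 11.5% (PF). In WT BMDMs with PF 0 of 14 were higher and 3 lower, against 6.99% and 8.95% of all genes. Gps2 (−0.35, adjusted p = 0.00773) and the histone deacetylase Hdac5 (−0.36, adjusted p = 0.0167) were among the lower, and neither was called with the trend removed. On that scale 1 of 14 was higher and 0 lower, against 4.23% and 2.57% of all genes.

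**Figure D4:**
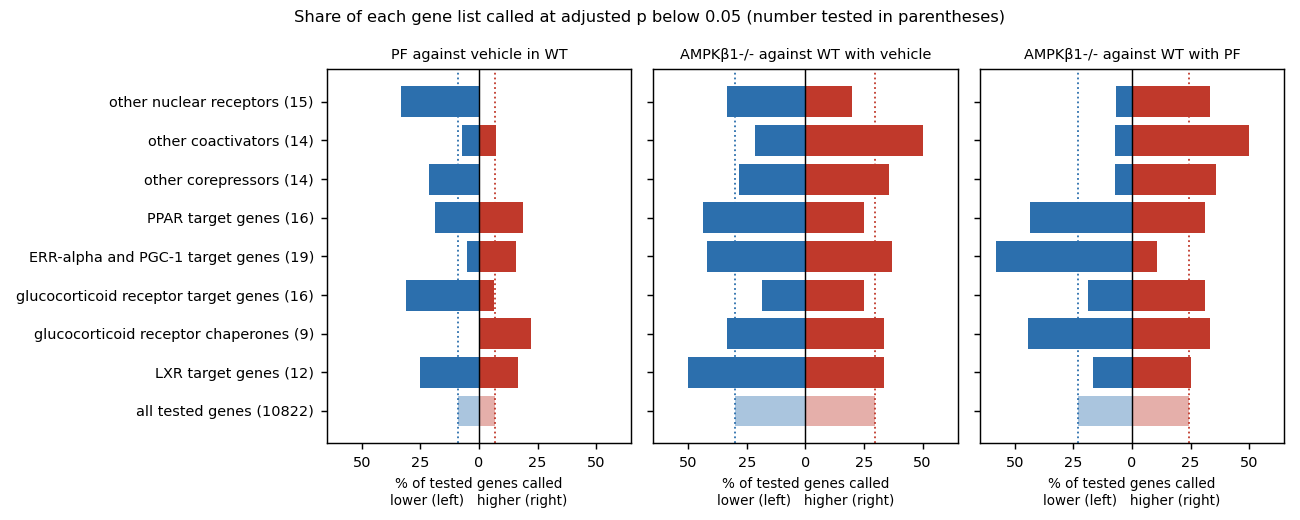
Share of the tested genes of each list that were called higher (right, red) or lower (left, blue) at an adjusted p below 0.05, in percent, in 3 comparisons with TMM scaling. The number tested is in parentheses, and pale bars and dotted lines give the share over all 10822 tested genes. Coactivators reach 50% higher in both comparisons of the genotypes. After the GC and length trend was removed, 7 of 14 were higher with vehicle and 4 with PF. In WT BMDMs with PF 5 of 15 other nuclear receptors are lower, of which 1 remained lower after that removal.

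Target genes of the members were taken from lists written from general knowledge. Of 16 tested PPAR target genes, 3 were higher and 3 lower with PF in WT BMDMs, against 6.99% and 8.95% of all genes. After removal of the trend 2 were higher and 4 lower, against 4.23% and 2.57%. The fatty acid binding proteins Fabp5, from 319 ± 30.5 to 583 ± 23.7 CPM (log2 fold change 0.87, adjusted p = 7.23e-05), and Fabp4, from 12 ± 2.79 to 28.3 ± 7.92 CPM (1.23, adjusted p = 0.00259), rose. Angptl4, an inhibitor of lipoprotein lipase, fell from 6.63 ± 1.20 to 2.6 ± 0.477 CPM (−1.33, adjusted p = 0.00129), and the mitochondrial carrier Ucp2 fell (−0.64, adjusted p = 0.00073). All 4 were called in the same direction with the trend removed.

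In AMPKβ1-/- BMDMs 0 of the 16 were called with PF (0.0554% of all genes higher and 0% lower). The difference in response was itself called for Fabp5 (0.90, adjusted p = 0.00471) and Ucp2 (−0.60, adjusted p = 0.0417), also with the trend removed. Between the genotypes with vehicle 4 PPAR targets were higher and 7 lower, among them Fabp5 (−0.73, adjusted p = 2.20e-05), and with PF 5 were higher and 7 lower. The shares over all genes were 29.7% higher and 30% lower with vehicle, and 24.1% and 22.9% with PF. Cd36, the scavenger receptor for oxidised lipids, was called higher with vehicle (1.44, adjusted p = 0.000207), with a transcript of 38.8% GC, and was at 0.25 (adjusted p = 0.107) with the trend removed.

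Of 19 tested ERRα and PGC-1 target genes, 3 were higher and 1 lower with PF in WT, against 6.99% and 8.95% of all genes. After removal of the trend 2 were higher and 0 lower, against 4.23% and 2.57%. Etfdh (0.47, adjusted p = 0.0128) and Ndufs1 (0.41, adjusted p = 0.0141), a dehydrogenase of the electron transfer chain and a subunit of complex I, were called on both scales. Cycs (0.53, adjusted p = 0.0386) and Mfn2 (−0.25, adjusted p = 0.0387) were not called with the trend removed (adjusted p = 0.704 and 0.776). Between the genotypes 7 were higher and 8 lower with vehicle, and 2 and 11 with PF, where the median was −0.24. Of all genes 29.7% were higher and 30% lower with vehicle, and 24.1% and 22.9% with PF. With the trend removed 4 were higher and 3 lower with vehicle and 2 and 2 with PF. The shares of all genes were then 26.3% and 9.93% with vehicle and 27.2% and 11.5% with PF. Gabpa, a transcription factor of mitochondrial genes, was higher on both scales (1.34 and 0.40 with vehicle), and the complex III gene Uqcrc1 was lower on both (−0.75 and −0.18).

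Of 16 glucocorticoid receptor target genes, all tested, 4 were higher and 3 lower in AMPKβ1-/- BMDMs with vehicle, where Nr3c1 itself was 3.45-fold higher. The shares over all genes were 29.7% and 30%. Dusp1, a phosphatase of MAP kinases, was higher with vehicle (0.54, adjusted p = 0.000612) and with PF (1.01, adjusted p = 6.58e-06), and on both scales. Tgm2 and Mt1 were lower (−0.60 and −0.37), and neither was called with vehicle when the trend was removed. With PF 5 were higher and 3 lower, against 24.1% and 22.9% of all genes. Removal of the trend gave 7 higher and 0 lower (vehicle) and 9 higher and 1 lower (PF). On that scale 26.3% and 27.2% of all genes were higher, and 9.93% and 11.5% lower. In WT BMDMs with PF, 1 rose and 5 fell, against 6.99% and 8.95% of all genes. With the trend removed 0 rose and 3 fell, against 4.23% and 2.57%. Cebpd (−0.75, adjusted p = 0.00092) and Dusp1 (−0.46, adjusted p = 0.0162) were lower on both scales. Anxa1 was called higher (0.78, adjusted p = 0.015) and Per1 lower (−0.40, adjusted p = 0.0179). Neither of these was called with the trend removed (adjusted p = 0.0902 and 0.66).

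Of the 9 chaperones that hold the glucocorticoid receptor ready for ligand, 3 were higher and 3 lower with vehicle between the genotypes and 3 and 4 with PF, and 4 and 0 and then 3 and 1 after removal of the trend. Hsp90aa1, the inducible HSP90, was at 18 ± 3.88 CPM in WT and 51.0 ± 14.4 CPM in AMPKβ1-/- with vehicle (1.5, adjusted p = 0.000102), and it was called on both scales in both comparisons. In WT with PF, Hsp90aa1 (0.76, adjusted p = 0.0286) and Dnaja1 (0.50, adjusted p = 0.0397) were called higher, where 6.99% of all genes were higher and 8.95% lower. With the trend removed 0 of 9 were called, against 4.23% of all genes higher and 2.57% lower.

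Of 12 target genes of LXR, which pairs with RXR, 4 were higher and 6 lower with vehicle between the genotypes and 3 and 2 with PF, and 4 and 2 and then 5 and 2 after removal of the trend. The cholesterol exporter Abca1 was at 71.5 ± 14.7 CPM in WT and 140 ± 18.6 CPM in AMPKβ1-/- with vehicle (0.97, adjusted p = 0.000211), and was called on both scales. The desaturase Scd2 was lower (−0.63, adjusted p = 9.72e-05). In WT BMDMs with PF 2 rose and 3 fell, where 6.99% of all genes were higher and 8.95% lower. After removal of the trend 1 rose and 0 fell, where the shares were 4.23% and 2.57%. The rise of Scd2 from 51.4 ± 3.27 to 86.0 ± 4.28 CPM (0.74, adjusted p = 0.000454) differed from its response in AMPKβ1-/- BMDMs (difference 0.90, adjusted p = 0.00811).

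Over the 12 libraries the members moved in opposed sets, which is described here without a test since the libraries share groups and base composition. Pearson's r of log2 CPM was 0.991 between Nr3c1 and Ncor1, 0.934 between Nr3c1 and Nrip1 and 0.951 between Ncor1 and Nrip1. Rxrb and Esrra had 0.962, Rxrb and Ppard 0.917, and Rxrb and Nr3c1 −0.953. Ppargc1b had values between −0.26 and 0.283 with all other members, at its low counts.

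The tested genes whose log2 CPM was most like a member's were found over the same 12 libraries. For Nr3c1 they were Pum2 (r = 0.998) and Hif1a (0.997), for Ncor1 Sgpp1 (0.997) and Adam10 (0.996), and for Nrip1 Zfp322a (0.986) and Chd1 (0.982). For Rxrb they were Stat6 and Nosip (both 0.991), for Esrra Aldh16a1 (0.990) and Phc2 (0.989), for Ppard Tagln2 (0.976) and Brf2 (0.975), and for Rxra Ripor1 (0.940) and Ppp6r2 (0.930). For Pparg they were Dync1i2 (0.917) and Glyr1 (0.913), and for Ppargc1b Chn2 (0.832) and B9d1 (0.799). The transcripts like Nr3c1, Ncor1 and Nrip1 had 39.9% to 48.0% GC, and those like Rxrb, Esrra and Ppard 54.2% to 60.5%.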

How the data were processed

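RNA sequencing libraries were prepared with a directional kit, and the authors' processing used Trim Galore for trimming and Salmon for quantification. Deposited were whole-number estimated counts per gene without normalization for 12960 genes in 12 libraries. The genome build and the versions and options of these tools are not given in the sources used here. Library groups came from the names of the count columns, which match the labels by genotype and treatment but not by single sample.

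Tests were run with edgeR 4.0.16 under R 4.3.3 (robust quasi-likelihood test, TMM, filterByExpr), in one fit of 4 group means to 12 libraries, with Benjamini-Hochberg adjustment over 10822 genes. SE were approximated by dividing a fold change by the root of its F statistic. For log2 CPM the prior count was 2. Limits from counts cover counting error only. Length was that of a gene's longest GENCODE M21 transcript, and GC content was pooled over its transcripts (GRCm38). Both were taken from protein-coding transcripts where a gene had any. By symbol 12703 genes were matched, 191 by an older symbol, and 66 were not matched. The trend in GC content and length was fitted per library with natural splines (5 degrees of freedom) and used as the offset of the model.

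The members, lists, tests and alternatives were chosen with earlier results of these data known. All members were named, with Prkab1, at most 4 called genes of smallest p for each list and comparison, and the 2 genes most like each member. One list gene that the rule names is not reported here. Libraries are numbered 1 to 3 as in the column names. Same-numbered libraries had deviations whose correlations ran from −0.17 to 0.317, so the numbers were not read as pairs. Alternatives were other scalings and filters, DESeq2 1.42.0, limma-voom (limma 3.58.1), fits to the libraries of a comparison alone, a replicate block, the GC and length offset, and leaving out each library.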

Additional observations from a re-analysis of the deposited data

How the results depend on the processing

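The higher levels of Nr3c1, Nrip1 and Ncor1 in AMPKβ1-/- BMDMs kept their direction and their call, with vehicle and with PF, under the alternatives run, except that Ncor1 (0.703 and 0.632) did not pass the added fold threshold. Their lowest log2 fold changes came with the GC and length trend removed and each library centred on its median gene (an alternative chosen after the data were seen), at 1.00, 0.90 and 0.33 (vehicle libraries) and 0.92, 1.04 and 0.25 (PF libraries). The replicate block left 3 members higher and 3 lower between the genotypes with vehicle and with PF, and 1 lower with PF in WT, so it changed no count of members called. The low counts of Ppargc1b limit what could be detected for that gene.

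The other calls depended on the processing. With PF in WT BMDMs the count called lower, 1, went to 0 with the trend removed, centred or not, in a fit to the libraries of the comparison and with the added fold threshold, and ranged from 0 to 2 when single libraries were left out (0 without WT vehicle 1, PF 2 or PF 3, and 2 without PF 1). For AMPKβ1-/- against WT with vehicle the 3 lower went to 1 under library size alone, 0 with the trend removed, 1 with it removed and centred, and 0 with the fold threshold, while the 3 higher went to 5 with the trend removed. With PF the 3 lower went to 0 under library size alone, with the trend removed, centred or not, and with the fold threshold, and ranged from 0 to 3 when single libraries were left out (0 without WT PF 1 or AMPKβ1-/- PF 1).

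Signs of members that were mostly uncalled changed as follows, with the trend removed and, second, also centred. With PF in WT, Ppard went to 0.232 and 0.19, Esrra to 0.133 and 0.0928 and Rxra to 0.145 and 0.103. With PF in AMPKβ1-/- BMDMs, Ppard went to 0.0501 and 0.0218 (0.00172 under library size alone) and Esrra to 0.0196 when not centred. For the difference in response, Pparg went to −0.137 and −0.148, Ppard to 0.182 and 0.168, Esrra to 0.114 and 0.103 and Rxra to 0.154 and 0.142, and Nrip1 went to 0.0113 under library size alone. Between the genotypes with vehicle, Ppard went to 0.122 and 0.00819, Esrra to 0.181 and 0.0686, Rxra to 0.29 and 0.177 (0.124 under library size alone) and Pparg to −0.102 when centred. With PF, Esrra went to 0.0673 when not centred. When single libraries were left out, these uncalled values ranged across 0: with PF in AMPKβ1-/- BMDMs Ppard from −0.0765 to 0.0625 and Esrra from −0.0747 to 0.00832, for the difference in response Pparg from −0.0861 to 0.194, Ncor1 from −0.0555 to 0.172 and Nrip1 from −0.344 to 0.0768, and between the genotypes Pparg from −0.0282 to 0.252 with vehicle, Ppargc1b from −0.106 to 0.284 and Rxra from −0.028 to 0.04 with PF.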
